A study of Mus musculus with 24 samples.

Results

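Expression of 10 target genes of the liver X receptors (LXRs) that serve lipid efflux and lipid remodelling was followed in macrophages sorted from 4 mouse tissues. The members were the rows of the deposited gene table named Abca1, Abcg1, Apoe, Apoc1, Pltp, Mylip, Srebf1, Scd1, Scd2 and Lpcat3. All 10 were found, among 55487 genes, and all 10 passed the filter on low counts in each fit. Bulk RNA sequencing covered 24 libraries in 8 groups of 3: lung (alveolar macrophages), liver (Kupffer cells), brain (microglia) and spleen, each from wild-type (WT) mice and from mice of the genotype Z165KO (KO). The labels do not describe the Z165KO allele, and they state no strain, age, sorting gate or link between libraries and animals. P-values therefore measure the spread between these libraries, part of which may be technical.

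LXRs are nuclear receptors that sense oxidised cholesterol. Paired with a retinoid X receptor (RXR), they sit on target genes and switch them on when the cell is loaded with sterol. The targets work as a chain. The pumps ABCA1 and ABCG1 move cholesterol out of the cell, apolipoproteins E and C1 and the transfer protein PLTP carry or remodel lipid outside it, and MYLIP (also called IDOL) tags the LDL receptor for destruction. SREBP-1c, made from Srebf1, turns on fatty acid synthesis, the desaturases SCD1 and SCD2 make monounsaturated fatty acids, and LPCAT3 inserts polyunsaturated chains into membrane phospholipids. In macrophages this programme is known above all from cells that clear lipid-rich material, such as surfactant in the lung, aged red cells in the spleen and myelin in the brain.

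LXR and RXR bind a direct repeat of a short half-site with a spacer of fixed length. The promoter windows of the members, taken from RefSeq on GRCm38.p6 (the mm10 assembly), each run from 250 bases before to 50 bases after an annotated start site. The table used here held 10 windows for 6 of the members (Abca1, Apoe, Lpcat3, Mylip, Pltp and Srebf1). Abcg1, Apoc1, Scd1 and Scd2 had no entry. Both strands were searched for 2 copies of GGTNA in the same orientation with 5 bases between them, which is the core of the repeat. A match stood in 1 window of Abca1 and 1 of Srebf1. Among all 32851 windows of the table, 0.718% held a match. These 2 windows are shown because they are the windows of members that hold the repeat; the other 8 held no match. They are printed 5′ to 3′ on the gene's strand, and the capitals mark the repeat, which lies on the opposite strand to the gene.
Abca1, chr4:53159846-53160145, minus strand: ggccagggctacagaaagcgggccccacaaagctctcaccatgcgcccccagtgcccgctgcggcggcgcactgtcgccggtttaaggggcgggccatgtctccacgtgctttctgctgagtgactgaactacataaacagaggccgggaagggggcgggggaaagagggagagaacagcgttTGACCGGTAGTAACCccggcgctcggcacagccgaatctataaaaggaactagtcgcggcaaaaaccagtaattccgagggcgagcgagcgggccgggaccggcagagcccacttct
Srebf1, chr11:60210422-60210721, minus strand: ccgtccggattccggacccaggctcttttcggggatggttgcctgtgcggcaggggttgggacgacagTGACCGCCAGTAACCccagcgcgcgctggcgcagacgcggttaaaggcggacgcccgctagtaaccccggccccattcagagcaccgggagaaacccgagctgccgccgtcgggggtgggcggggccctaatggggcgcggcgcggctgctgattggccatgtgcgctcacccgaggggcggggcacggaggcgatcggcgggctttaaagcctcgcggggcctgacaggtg
The repeat lay from -67 to -53 relative to the start site in Abca1 and from -182 to -168 in Srebf1. ZEB repressors, named in the title of the series, are known to bind the E-box CACCTG. On either strand it stood in 1 of 3 Apoe windows and in 2 of 3 Srebf1 windows, and 20.2% of all windows held it. It overlapped no repeat. A match describes the letters only, since no binding was measured.

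The libraries were deep and well matched. Total counts ran from 50449347 to 65981787, and within a cell type the totals differed by at most 1.23-fold. Every group carried the markers of its label. Summed CPM (counts scaled to a fixed library total) of 10 alveolar macrophage markers were 24325 to 34759 in the lung libraries and at most 1447 elsewhere. For 8 Kupffer cell markers the sums were 15287 to 21082 in liver against at most 1436 elsewhere. For 8 microglia markers they were 30247 to 33874 in brain against at most 399, and for 6 markers of splenic red pulp macrophages 21451 to 25313 in spleen against at most 12632 in liver. Marco was in both the alveolar and the Kupffer list. It was the highest alveolar marker in Kupffer WT libraries (mean 1003 CPM) and the highest Kupffer marker in alveolar KO libraries (1033 CPM). Zeb2 read 256 ± 57.7 CPM in alveolar WT and 136 ± 8.70 in alveolar KO (SD, n = 3 each), a log2 change of -0.89 ± 0.19 (SE) with an adjusted p of 0.116, and differed by at most 0.12 on the log2 scale elsewhere. The second WT microglia library stood apart from its group, with 20646 genes at 10 counts or more against 17220 and 18198, and log2 differences of members that rest on it are also given without it.

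Most differences among the members lay between cell types. In the 12 WT libraries all 10 differed among the 4 cell types (edgeR quasi-likelihood F test, adjusted p under 0.05), where 52.3% of all genes tested did so. In the 12 KO libraries all 10 differed as well, where 56.9% of all genes did so. Over the 16 alternative fits of each genotype the count was 9 or 10. By mean CPM each type led in some members. Kupffer cells led in Apoe, Apoc1 and Pltp, alveolar macrophages in Abcg1, splenic macrophages in Srebf1, and microglia in Mylip, Lpcat3 and Scd2. In edgeR's test on WT, microglia did not pass against Kupffer cells for Mylip (adjusted p = 0.0962) or alveolar macrophages for Lpcat3 (0.0688). Nor did they against splenic macrophages for Scd2 (0.051). Per transcript length, in TPM (counts divided by transcript length and scaled to a fixed total), Apoe led the members in every group.

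**Figure D1:**
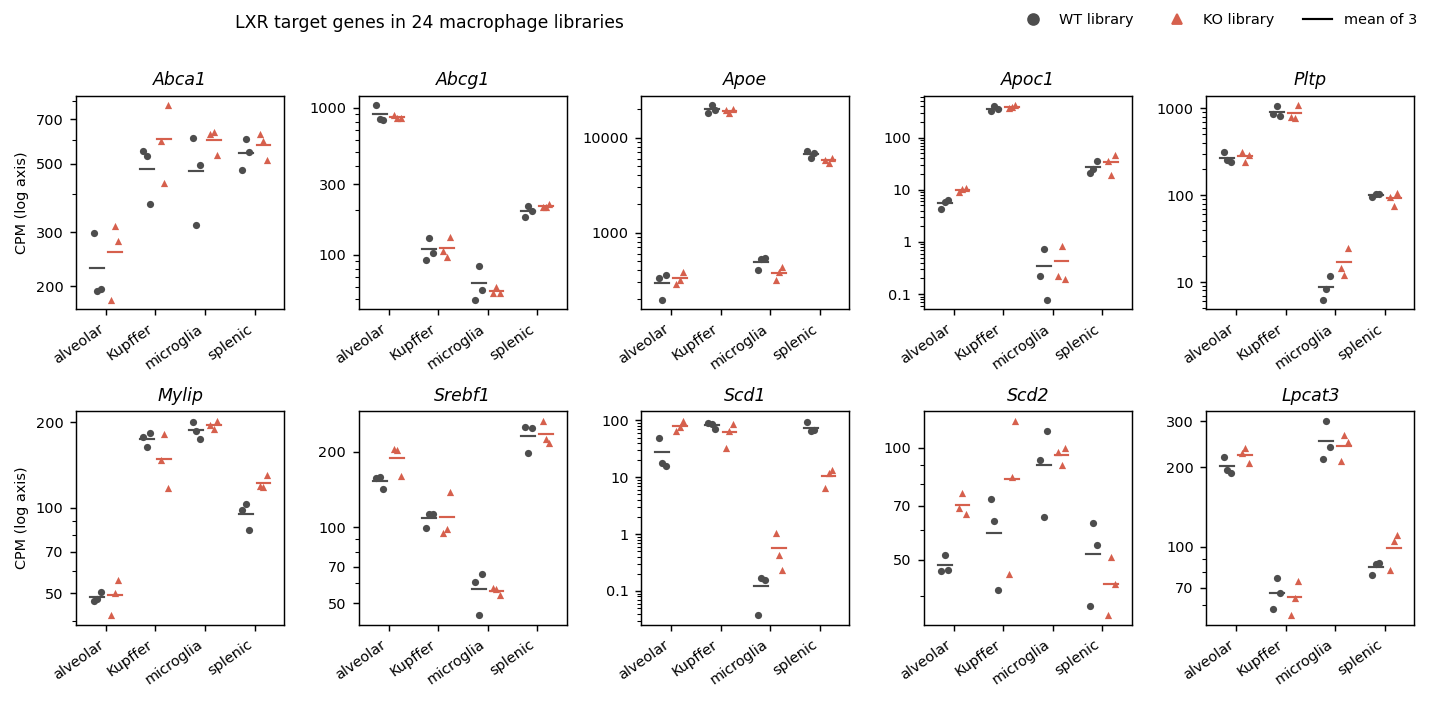
CPM of each member in the 24 libraries, on a log axis that differs between panels. Circles are WT libraries, triangles KO libraries and bars the mean of 3. The cell types separate most members, and Scd1 in splenic macrophages is the member whose genotypes lie farthest apart, at 64.5 to 92.2 CPM in WT and 6.46 to 13.2 in KO.

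The pumps come first in the chain, and alveolar macrophages were lowest in Abca1 RNA and highest in Abcg1 RNA. Abca1 (chr4:53030787-53159895, minus strand), which loads cholesterol and phospholipid onto lipid-poor apolipoprotein A-I, was lowest in alveolar macrophages. WT alveolar libraries gave 297, 193 and 196 CPM, and WT splenic libraries 479, 603 and 547. Kupffer libraries gave 550, 530 and 369, and microglia 609, 317 and 497, the middle value being the library that stood apart. All 3 alveolar values lay below all other WT values of Abca1. The log2 difference of alveolar from splenic macrophages was -1.34 ± 0.27 (SE, adjusted p = 0.00343), from microglia -1.12 ± 0.27 (adjusted p = 0.00671) and from Kupffer cells -0.96 ± 0.27 (adjusted p = 0.0204). Splenic macrophages, Kupffer cells and microglia did not differ beyond their spread in Abca1, with adjusted p of 0.398 to 0.695. The 95% interval of Kupffer minus splenic ran from -0.97 to 0.20 on the log2 scale. The Kupffer difference was lost without alveolar replicate 2 (adjusted p = 0.0806) or 3 (0.0823), or without Kupffer replicate 1 (0.0706) or 2 (0.0684). Without the microglia library that stood apart, microglia minus splenic was 0.01 in place of -0.22.

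Abcg1 (chr17:31057675-31117988, plus strand), which passes cholesterol to mature high-density lipoprotein and is needed in lung for handling surfactant lipid, was highest in alveolar macrophages. Alveolar WT libraries read 1038, 833 and 825 CPM. Splenic ones read 181, 215 and 197, Kupffer ones 92.5, 130 and 103, and microglia 49.4, 83.9 and 57.5. The order alveolar, splenic, Kupffer, microglia held with no overlap between neighbouring groups, and all 6 pairs of types passed. Alveolar macrophages exceeded microglia by 3.78 ± 0.22 on the log2 scale (adjusted p = 2.46e-07) and splenic macrophages by 2.09 ± 0.20 (adjusted p = 2.18e-05). The closest neighbours, Kupffer cells and microglia, differed by 0.61 ± 0.20 (adjusted p = 0.0359). That difference was lost without Kupffer replicate 2 (adjusted p = 0.137) or 3 (0.0632) or microglia replicate 1 (0.121) or 3 (0.109), and was 0.83 without the microglia library that stood apart.

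Because the genes differ in length, the balance of the pumps was read in TPM. The ratio of Abca1 to Abcg1 was 0.177 ± 0.0211 in alveolar WT libraries, 1.93 ± 0.0572 in splenic, 3.19 ± 0.878 in Kupffer and 5.81 ± 3.02 in microglia (SD, n = 3 each). Alveolar macrophages were the cells with more Abcg1 than Abca1 in every library. KO libraries kept that order, at 0.212 ± 0.0609, 1.91 ± 0.233, 3.77 ± 0.524 and 7.43 ± 0.556. In WT microglia the library that stood apart had a ratio of 2.66, against 8.68 and 6.08 in the other two.

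**Figure D2:**
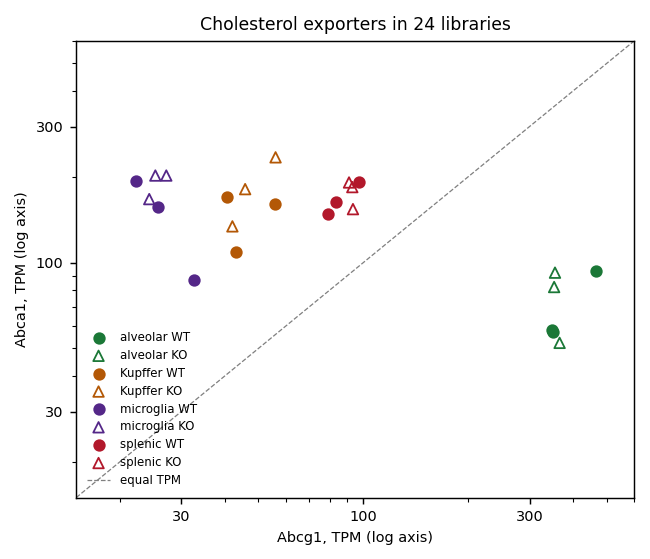
TPM of Abca1 against Abcg1 in the 24 libraries, both on log axes. Colours are cell types, filled circles WT, open triangles KO, and the dashed line marks equal TPM. The 6 alveolar libraries lie below the line and the other 18 above it.

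Among the proteins that carry lipid outside the cell, Apoe (chr7:19696109-19699188, minus strand) had the highest levels. Apolipoprotein E is secreted by macrophages and accepts cholesterol. WT Kupffer libraries read 18152, 21985 and 19814 CPM, and splenic ones 7274, 6187 and 6917. Microglia read 407, 532 and 539 and alveolar macrophages 336, 197 and 359. In Kupffer cells Apoe ranked 1 of all genes by TPM and took 2% of all counts, and in splenic macrophages it ranked 8 with 0.679%. All 6 pairs of types passed in WT. Alveolar minus Kupffer was -5.96 ± 0.23 on the log2 scale (adjusted p = 1.21e-07), and alveolar minus microglia was -0.79 ± 0.19 (adjusted p = 0.00684). Hepatocytes also make apolipoproteins in bulk. The summed level of 8 hepatocyte markers was 171 to 412 CPM in WT Kupffer libraries, with 8 of 8 above 1 CPM and Alb highest at 110, and at most 5.94 in splenic libraries. Markers of endothelium, 7 in all, summed to 4153 to 5066 CPM in WT Kupffer libraries (7 of 7 above 1 CPM, Stab2 highest) and to 1816 to 4199 in KO, against at most 877 in the other tissues. Cdh5 was in both this list and the list of Kupffer cell markers. The part of hepatocyte and endothelial RNA in the Kupffer values was not tested.

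Apoc1 (chr7:19689481-19692660, minus strand) lies beside Apoe and codes for a small apolipoprotein that inhibits lipid exchange. It followed the order Kupffer, splenic, alveolar, microglia. WT Kupffer libraries read 317, 407 and 352 CPM, splenic ones 21.4, 24.8 and 35.9, alveolar ones 4.29, 5.89 and 6.48, and microglia 0.224, 0.726 and 0.0789. No neighbouring groups overlapped and all 6 pairs passed. Kupffer cells exceeded splenic macrophages by 3.50 ± 0.43 on the log2 scale (adjusted p = 0.000281). The 3 WT microglia libraries together held 54 counts of Apoc1, so its microglial level rests on few reads. Without the library that stood apart, Kupffer cells minus microglia was 10.98 in place of 9.86. The neighbours did not keep a fixed proportion. The TPM ratio of Apoe to Apoc1 was 19.4 ± 7.81 in alveolar, 19.4 ± 0.579 in Kupffer, 90.7 ± 25.8 in splenic and 1089 ± 1133 in microglial WT libraries, whose values were 633, 255 (the library that stood apart) and 2379.

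Pltp (chr2:164839518-164857711, minus strand), whose product moves phospholipid between lipoproteins, was also highest in Kupffer cells. WT Kupffer libraries read 867, 1050 and 808 CPM, alveolar ones 313, 251 and 240, splenic ones 95.2, 104 and 104, and microglia 6.30, 8.37 and 11.9. The 4 groups did not overlap and all 6 pairs passed, from 1.32 ± 0.21 for alveolar over splenic (adjusted p = 0.000741) to 6.51 ± 0.26 for Kupffer over microglia (adjusted p = 4.98e-08). Exons of Pltp overlap those of Ctsa on the opposite strand over 495 bases, 19.3% of its exon bases. Strand use in the counting was not given in the sources used here, so reads of the pair cannot be told apart there.

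Mylip (chr13:45389742-45412022, plus strand), the ligase for the LDL receptor, had tight replicates and an order unlike that of the carriers. Microglia read 201, 187 and 175 CPM in WT, Kupffer cells 178, 164 and 184, splenic macrophages 98.5, 103 and 83.3, and alveolar macrophages 47.1, 47.6 and 50.4. Microglia and Kupffer cells overlapped and missed the threshold (log2 -0.27 for Kupffer minus microglia, 95% interval -0.53 to -0.02, adjusted p = 0.0962). The other 5 pairs passed. Alveolar minus microglia was -2.01 ± 0.12 on the log2 scale (adjusted p = 3.01e-07).

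Srebf1 (chr11:60199089-60222581, minus strand) codes for the SREBP-1 factors that drive fatty acid synthesis. WT levels were 197 to 250 CPM in splenic macrophages, 142 to 159 in alveolar macrophages, 99.8 to 113 in Kupffer cells and 44.9 to 65.3 in microglia. The ranges did not overlap and all 6 pairs passed. Microglia minus splenic was -2.05 ± 0.17 on the log2 scale (adjusted p = 5e-06). The step between splenic and alveolar macrophages, -0.68 ± 0.17 (alveolar minus splenic, adjusted p = 0.0105), was lost without alveolar replicate 3 (0.0508). That of alveolar over Kupffer, 0.62 ± 0.17 (adjusted p = 0.0169), was lost without alveolar replicate 1 (0.0576) or 2 (0.0686) or Kupffer replicate 1 (0.0731). The gene table sums the SREBP-1a and SREBP-1c transcripts.

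The desaturases split by tissue. Scd1 (chr19:44394455-44407879, minus strand) read 91.9, 87.2 and 69.7 CPM in WT Kupffer cells and 92.2, 64.5 and 67.2 in splenic macrophages, which overlapped (adjusted p = 0.964). Alveolar libraries read 48.2, 18 and 15.8, below Kupffer cells by a log2 difference of -1.49 ± 0.39 (adjusted p = 0.015) that was lost without alveolar replicate 2 (0.0647) or 3 (0.0515). Alveolar minus splenic, -1.54 ± 0.39 (adjusted p = 0.0131), was lost without alveolar replicate 2 (0.0573). Microglia were at 0.0373, 0.172 and 0.158 CPM, from 19 counts in 3 libraries. Scd2 (chr19:44293674-44306864, plus strand), the desaturase of brain and of many non-hepatic cells, was the member with the flattest profile. WT microglia read 92.9, 65.3 and 111 CPM, Kupffer cells 72.7, 63.6 and 41.4, splenic macrophages 37.7, 62.7 and 54.9 and alveolar macrophages 46.8, 51.4 and 47.0. Only 2 of 6 pairs passed for Scd2, microglia over alveolar macrophages (log2 -0.94 ± 0.27 for alveolar minus microglia, adjusted p = 0.0174) and microglia over Kupffer cells (-0.78 ± 0.27 for Kupffer minus microglia, adjusted p = 0.0479). The first was lost without any 1 of 4 libraries (alveolar replicate 1 or 3, microglia replicate 1 or 3, adjusted p up to 0.0724). The second was lost in 12 of 16 alternative fits, 10 of which left out 1 library, with an adjusted p of up to 0.17 (without Kupffer replicate 3). Without the microglia library that stood apart, microglia over splenic macrophages passed as well (0.95 ± 0.26, adjusted p = 0.0198). Of the 50-base words in Scd1 transcripts 4.60% also occur in another gene, mainly Scd3 and Scd2, so cross-counting can touch a small part of the gene.

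Lpcat3 (chr6:124663027-124704418, plus strand) was high in microglia and alveolar macrophages and low in the other 2 types. WT microglia read 216, 300 and 239 CPM and alveolar macrophages 220, 195 and 191, which overlapped (adjusted p = 0.0688). Splenic macrophages read 78.5, 86.4 and 87.0 and Kupffer cells 58.1, 76.1 and 67.1, a step of -0.53 ± 0.15 on the log2 scale (Kupffer minus splenic, adjusted p = 0.0301). It was lost in 6 of 16 alternative fits, with an adjusted p of up to 0.116 (without Kupffer replicate 1). Kupffer minus microglia was -2.07 ± 0.15 (adjusted p = 2.32e-06). Exons of Lpcat3 overlap those of Emg1 on the opposite strand over 10.2% of their length.

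Counted over pairs of cell types in WT, the members passed in 9 of 10 cases for alveolar against Kupffer (28.0% of all genes tested), 9 for alveolar against microglia (39.8%), 9 for alveolar against splenic (26.9%), 8 for Kupffer against microglia (32.4%), 7 for Kupffer against splenic (16.4%) and 8 for microglia against splenic (34.9%). In KO, in the same order, 8, 7, 8, 8, 7 and 9 members passed, beside 31.3%, 45.8%, 35.4%, 34.4%, 18.9% and 35.2% of all genes tested. In all, 50 of 60 member comparisons passed in WT and 47 of 60 in KO, and 43 passed in both with the same direction. The share of all genes that passed in both was not computed, so the 43 cannot be set against a background. The fits on WT and on KO libraries share no library. Without the WT microglia library that stood apart, alveolar minus microglia was -1.35 for Abca1, 4.0 for Abcg1, -0.75 for Apoe, -2.04 for Mylip and -1.14 for Scd2 on the log2 scale. Kupffer minus microglia was then 6.45 for Pltp, -0.30 for Mylip, -0.98 for Scd2 and -1.96 for Lpcat3, and microglia minus splenic was -1.89 for Srebf1. Of these, the one for Mylip against Kupffer cells had an adjusted p above the threshold (0.0964), as with the library. The ratio of the highest to the lowest mean CPM of a member over the WT cell types ran from 1.85 for Scd2 and 2.37 for Abca1 to 678 for Scd1 and 1045 for Apoc1.

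**Figure D3:**
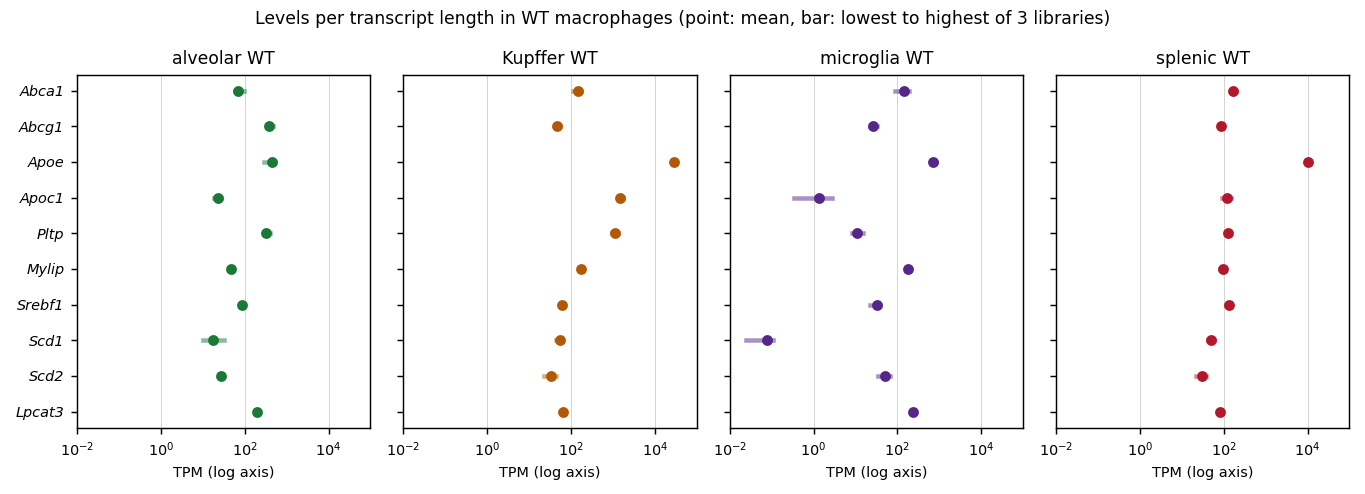
TPM of the members in WT libraries of each cell type, on a log axis. Points are means and bars run from the lowest to the highest of 3 libraries. Apoe leads in all 4 types, from 437 TPM in alveolar macrophages to 29281 in Kupffer cells, and Scd1 and Apoc1 are near the bottom in microglia, at 0.0769 and 1.37 TPM.

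The receptors themselves differed by tissue. Nr1h3, which codes for LXRα, read 451 to 569 CPM in WT splenic macrophages, 421 to 532 in Kupffer cells, 56.4 to 63.9 in alveolar macrophages and 1.34 to 2.07 in microglia, a 325-fold range of means. Nr1h2, which codes for LXRβ, stayed between 118 and 190 CPM in all 12 WT libraries. It too differed among the types (edgeR F test, adjusted p = 0.0131). Kupffer minus microglia was 0.40 ± 0.11 on the log2 scale (adjusted p = 0.0139) and microglia minus splenic -0.47 ± 0.11 (adjusted p = 0.00503). Per length, WT microglia held 2.01 ± 0.604 TPM of Nr1h3 and 118 ± 15.6 TPM of Nr1h2, while splenic macrophages held 662 ± 93.4 and 162 ± 8.91. Of the members, Apoc1, Pltp, Scd1, Abcg1 and Srebf1 were lowest where Nr1h3 was lowest, in microglia. By contrast, Mylip, Lpcat3 and Scd2 had their highest WT means there, though each missed the threshold against another type. This is a description over 4 cell types, and receptor activity was not measured.

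As a description, the genes whose log2(CPM + 1) over the 8 group means ran most like a member were sought among 12293 genes with at least 5 CPM in a group. For Abca1 they were Zbtb5 (Pearson r = 0.996) and Nid2 (0.984), for Apoe Pml and Dnase1l3 (0.998 each), and for Scd2 Gpn1 (0.963) and Cfap410 (0.958). Among the members, r over the same 8 means was 0.90 for Apoe with Apoc1, -0.98 for Apoe with Lpcat3 and -0.98 for Abcg1 with Mylip. WT and KO means of a cell type lie close together, so the 8 points hold little more than 4 cell types.

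Between genotypes few differences passed. Of 40 comparisons of KO with WT (10 members in 4 cell types), 1 passed: Scd1 fell in splenic KO macrophages. With edgeR's quasi-likelihood test, 0 of 10 members were called in alveolar macrophages (0.317% of all genes), 0 in Kupffer cells (0.0629%), 0 in microglia (0.0%) and 1 in splenic macrophages (0.747%). At an unadjusted p under 0.05 the counts were 3, 0, 3 and 2, beside 12.5%, 6.94%, 4.44% and 11.7% of all genes. DESeq2 called 3 in alveolar macrophages (Scd1, Scd2 and Apoc1), 0 in Kupffer cells, 0 in microglia and 2 in splenic macrophages (Scd1 and Mylip), where it called 5.08%, 2.2%, 0.519% and 4.83% of all genes. The median log2 difference over the members was 0.20, 0.02, 0.08 and 0.10 in the same order, beside -0.01, 0.00, -0.01 and 0.00 over all genes tested. For the mean effect over the 4 cell types 0 of 10 were called (0.624% of all genes), with 0 at an unadjusted p under 0.05 (9.79% of all genes) and 0 by DESeq2 (2.95%).

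**Figure D4:**
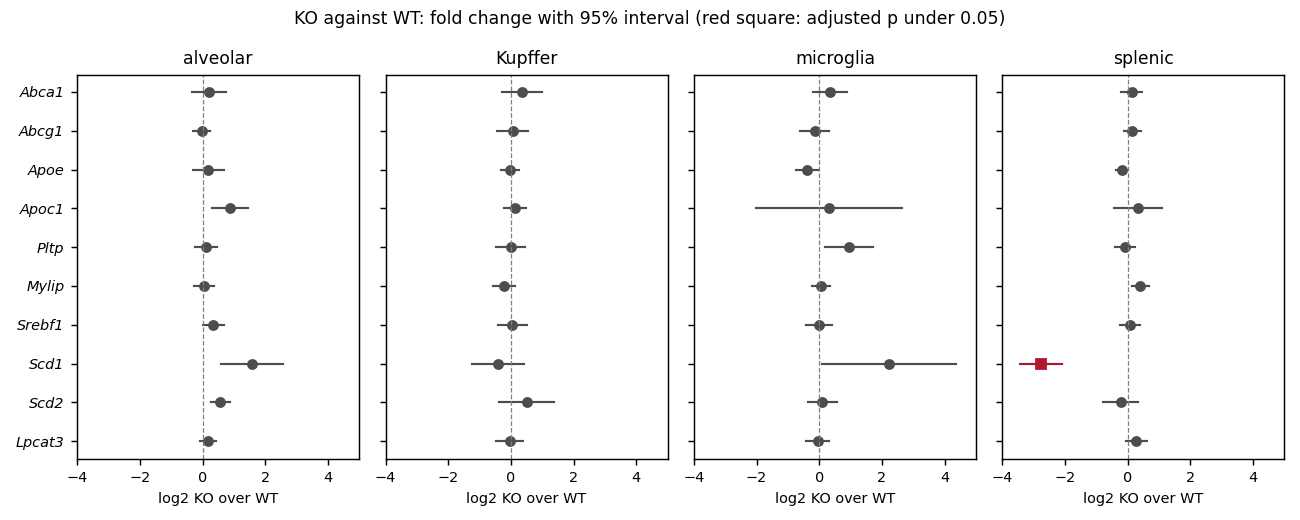
Log2 difference of KO from WT for each member in each cell type, with its 95% interval. The red square marks an adjusted p under 0.05. Most intervals span 0, and Scd1 in splenic macrophages lies at -2.77 (-3.45 to -2.09).

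Scd1 in the spleen was the 1 genotype difference of a member that edgeR's test called. SCD1 adds the double bond that turns stearate into oleate. The 3 splenic WT libraries read 92.2, 64.5 and 67.2 CPM and the 3 KO libraries 6.46, 12.1 and 13.2. All 3 KO values lay below all 3 WT values, with a wide gap between 13.2 and 64.5. The log2 change was -2.77 ± 0.29 (SE, 95% interval -3.45 to -2.09), a 6.84-fold fall, with an adjusted p of 0.0106 in edgeR's quasi-likelihood test. DESeq2 gave an adjusted p of 1.43e-18 and the fit of all 24 libraries also called it. The call was lost without WT replicate 1 (adjusted p = 0.0505), WT replicate 2 (0.0616) or KO replicate 2 (0.059), while the change stayed between -2.92 and -2.52. By rank, Scd1 went from place 3057 among all genes by TPM in splenic WT to 9440 in KO. In bulk libraries, fewer cells of a type and less RNA per cell cannot be told apart.

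Some markers of other cells also differed between the splenic genotypes. Summed over 8 B cell markers, splenic WT libraries held 1112, 674 and 726 CPM (8 of 8 above 1 CPM) and KO libraries 38.0, 31.1 and 27.0 (2 of 8 above 1 CPM, Pax5 at 0). All 8 fell in edgeR's test. The 8 neutrophil markers summed to 148 to 216 CPM in WT and 490 to 634 in KO, and 3 of them rose (Ngp, S100a8 and S100a9). The monocyte sum was 111 to 160 against 52.8 to 116, and the erythroid sum 5494 to 21688 against 15825 to 26329. In both of these lists the genotypes overlapped and 0 markers were called. The part of any of these marker lists in the Scd1 result was not tested. In alveolar macrophages, where Scd1 was higher in all KO libraries, the B cell sum was 34.5 to 44.4 CPM in WT and 0.941 to 1.56 in KO (3 of 8 markers fell, Fcer2a and Pax5 at 0 in KO). In Kupffer cells the B cell sum was 418 to 641 CPM in WT and 18.7 to 23.3 in KO (4 of 8 fell, Pax5 at 0 in KO), and Scd1 read 91.9, 87.2 and 69.7 in WT against 32.2, 64.3 and 88.0 in KO, groups that overlapped (log2 -0.40 ± 0.35, adjusted p = 0.907).

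**Figure D5:**
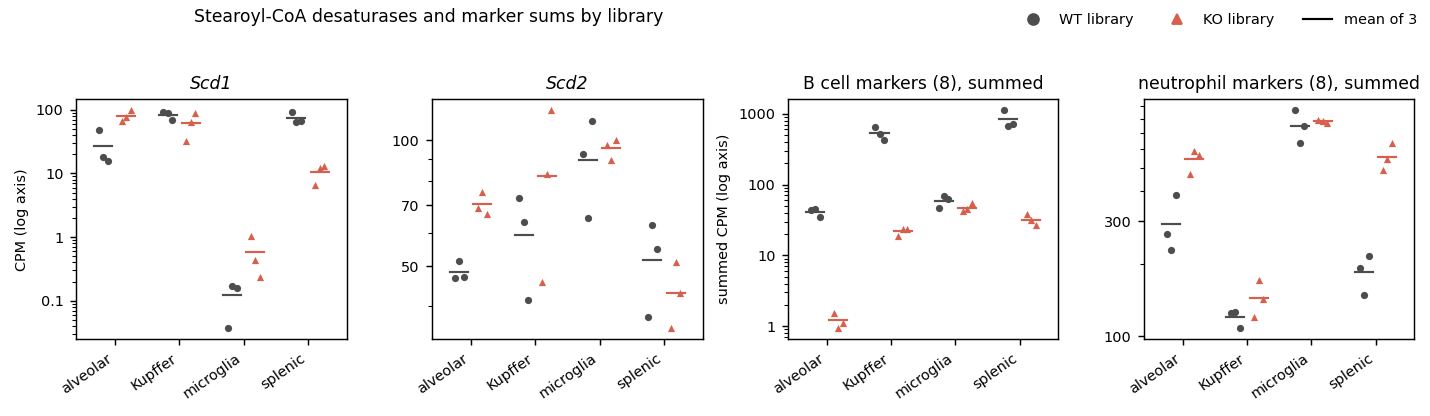
Scd1 and Scd2 in CPM, and the summed CPM of 8 B cell and 8 neutrophil markers, by library on log axes that differ between panels (circles WT, triangles KO, bars the mean of 3). In splenic macrophages both Scd1 and the B cell sum are lower in every KO library, and in alveolar macrophages the B cell sum is lower while Scd1 is higher.

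In alveolar macrophages Scd1 stood on the other side. WT libraries read 48.2, 18 and 15.8 CPM and KO libraries 65.8, 77.4 and 97.5, with no overlap. The log2 difference was 1.58 ± 0.42 (95% interval 0.60 to 2.57), and its adjusted p of 0.188 missed the threshold. WT replicate 1 was high for its group, and without it the difference was 2.26 with an adjusted p of 0.0611. Microglial Scd1 was at 0.0373, 0.172 and 0.158 CPM in WT libraries, against 1.05, 0.434 and 0.238 in KO libraries, from 19 and 94 counts in all, again without overlap but from few counts (adjusted p = 0.987).

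The genotype effect on Scd1 differed between cell types. In the fit of all 24 libraries the interaction gave an adjusted p of 0.00421, and it stayed between 0.000976 and 0.0147 with any 1 library left out. Scd1 was the 1 member of 10 that passed, where 0.524% of all genes did so, and DESeq2, which called 4.61% of all genes, called Mylip too (adjusted p = 0.0312). The alveolar effect exceeded the splenic effect by 4.36 ± 0.65 on the log2 scale (95% interval 2.99 to 5.72, adjusted p = 0.0021) and the microglial effect exceeded the splenic one by 5.01 ± 0.81 (adjusted p = 0.0137), a call lost without microglia KO replicate 1 (4.24, adjusted p = 0.0516) and kept, at 5.31, without the WT microglia library that stood apart. The other 4 contrasts between cell types did not pass, including alveolar against Kupffer (1.98 ± 0.63, adjusted p = 0.247) and Kupffer against splenic (2.38 ± 0.63, adjusted p = 0.338).

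Scd2, the close relative, was not called in the spleen, and whether its change differed from that of Scd1 was not tested. Splenic WT libraries read 37.7, 62.7 and 54.9 CPM and KO libraries 35.5, 51.0 and 43.1, which overlapped (log2 -0.22 ± 0.24, 95% interval -0.79 to 0.34, adjusted p = 0.778). The TPM ratio of Scd1 to Scd2 was 1.75 ± 0.859 in splenic WT and 0.270 ± 0.0699 in splenic KO libraries (SD, n = 3 each). In alveolar macrophages the ratio was 0.638 ± 0.442 in WT and 1.28 ± 0.310 in KO, and in Kupffer cells 1.61 ± 0.243 and 0.829 ± 0.0379. Scd2 itself was at 46.8, 51.4 and 47.0 CPM in alveolar WT libraries, against 68.9, 75.4 and 66.5 in KO libraries. Those groups did not overlap, and the log2 difference of 0.56 ± 0.13 had an adjusted p of 0.129.

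Several other members had groups that did not overlap without passing edgeR's test. DESeq2 did call some of them, with an adjusted p of 0.00177 for alveolar Scd2, 0.0105 for alveolar Apoc1 and 0.0405 for splenic Mylip. For alveolar Scd1 it gave 0.00337. In alveolar macrophages all 3 KO libraries lay above all 3 WT libraries for 4 of 10 members (Srebf1, Scd1, Scd2 and Apoc1, against 7.61% of all genes) and below them for 0 (11.8%). In splenic macrophages 1 lay above (Mylip, against 8.02%) and 2 below (Apoe and Scd1, against 11.9%). In microglia 2 lay above (Pltp and Scd1, against 5.58%) and 0 below (5.45%), and in Kupffer cells 0 lay above (5.87%) and 0 below (7.04%). Alveolar Apoc1 was at 4.29, 5.89 and 6.48 CPM in the WT libraries and at 9.13, 10.2 and 10.8 in the KO libraries (log2 0.88 ± 0.25, adjusted p = 0.21). Alveolar Srebf1 was at 157, 159 and 142 CPM in WT libraries, against 204, 203 and 160 in KO libraries (log2 0.34 ± 0.14, adjusted p = 0.406). In these lung libraries monocyte markers summed to 1166 to 1637 CPM in WT and 468 to 744 in KO, and neutrophil markers to 228 to 385 and 472 to 590. The monocyte sum was mostly Fn1, at a mean of 1252 CPM in WT and 523 in KO. Csf3r was the highest neutrophil marker, at 122 and 248. Of the 8 markers in each list, 2 monocyte and 8 neutrophil markers were higher in KO, and 0 were called. The part of these markers in the lung differences was not tested.

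Splenic Mylip was at 98.5, 103 and 83.3 CPM in WT libraries, against 119, 118 and 130 in KO libraries (log2 0.40 ± 0.12, adjusted p = 0.244). Splenic Apoe was at 7274, 6187 and 6917 CPM in WT libraries, against 5886, 5382 and 6116 in KO libraries (log2 -0.19 ± 0.08, adjusted p = 0.432). Both groups stand apart, by a margin that edgeR's test did not call. Microglial Pltp was at 6.30, 8.37 and 11.9 CPM in WT libraries, against 14.5, 12 and 24.4 in KO libraries (log2 0.95 ± 0.34, adjusted p = 0.987). Without the library that stood apart it was 0.89.

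For the pumps the intervals bound the size of a change. Abcg1 differed by -0.02 ± 0.11 in alveolar macrophages (95% interval -0.29 to 0.24) and by 0.15 ± 0.11 in splenic macrophages (-0.12 to 0.42). KO libraries read 891, 852 and 853 CPM of Abcg1 in lung and 210, 211 and 220 in spleen, against 825 to 1038 and 181 to 215 in WT. Abca1 was above 0 in all 4 types, at 0.20 ± 0.23, 0.35 ± 0.27, 0.33 ± 0.23 and 0.13 ± 0.14 in lung, liver, brain and spleen, and its mean over the types was 0.26 ± 0.13 (95% interval -0.02 to 0.54, adjusted p = 0.57). With 1 library left out these ran from 0.04 to 0.42, 0.08 to 0.57, 0.10 to 0.58 and 0.03 to 0.23, and microglia were at 0.10 without the WT library that stood apart. Apoe in Kupffer cells differed by -0.02 ± 0.12 (-0.31 to 0.26). Lpcat3 lay between -0.05 (microglia, 0.08 without the library that stood apart) and 0.28 in the 4 types.

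Other genes of the pathway were read from lists. Of the 5 LXR and RXR genes 4 were tested in each type and 0 passed. Nr1h3 read 63.9, 56.4 and 61.0 CPM in alveolar WT and 125, 94.2 and 101 in KO, groups that did not overlap (log2 0.86 ± 0.15, adjusted p = 0.0811, but 5.63e-05 with DESeq2 and 0.0296 with no low-count filter), and 569, 543 and 451 against 400, 338 and 431 in spleen (log2 -0.38 ± 0.12, adjusted p = 0.289). Nr1h2 differed by 0.33 ± 0.10 in alveolar macrophages (adjusted p = 0.225) and by at most 0.15 in the other 3. Of 13 corepressors and coactivators all were tested and 0 passed. Their most abundant genes per length were Gps2, a corepressor subunit at 163 ± 34.9 TPM in alveolar WT, and Ncoa3, a coactivator at 112 ± 10.9 TPM in Kupffer WT.

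Of 14 other LXR targets 8 or 9 were tested in each type and 0 passed. Cd5l, which codes for a secreted survival factor of tissue macrophages, read 7357 ± 682 TPM in Kupffer WT and 8296 ± 2298 in KO, 1393 ± 83.1 and 1222 ± 186 in spleen, and at most 3.11 elsewhere. Mertk, a receptor for apoptotic cells, lay between 349 and 788 TPM in all 8 groups. Of 12 genes of cholesterol release, storage and oxysterol synthesis 8 to 11 were tested and 0 passed. Lysosomal acid lipase, Lipa, differed by 0.57 ± 0.24 in Kupffer cells (adjusted p = 0.718), and Npc2, which hands cholesterol out of the lysosome, lay between 162 and 237 TPM in all groups.

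Of 12 lipogenic targets of SREBP-1c 10 to 12 were tested in each type and 0 passed for KO against WT, while Fads2, a fatty acid desaturase, passed the interaction (adjusted p = 0.0477). Fads2 averaged 3.26 ± 2.16 CPM in alveolar WT and 0.107 ± 0.1 in KO, and 2.87 ± 1.10 and 5.24 ± 1.93 in spleen. Its alveolar difference (log2 -4.88 ± 1.17, adjusted p = 0.153) was called by DESeq2 (3.32e-05) and by the fit of all 24 libraries (0.00455). The interaction call was lost in 22 of 28 alternative fits. Of 17 relatives of the members 14 to 16 were tested. Lpcat2, a phospholipid acyltransferase that also makes platelet-activating factor, rose in alveolar macrophages from 18.1 ± 2.83 to 44.3 ± 3.99 CPM (log2 1.33 ± 0.15, adjusted p = 0.0258), and 0 others passed in any type. The alveolar call of Lpcat2 was lost in 7 of 11 alternative fits, including each of the 6 that left out 1 library (adjusted p 0.0554 to 0.181). For Lpcat2 the interaction gave an adjusted p of 0.00381, and at most 0.0196 over 28 alternatives. It was far higher in microglia, at 1393 ± 112 CPM in WT and 1332 ± 22.8 in KO.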

How the data were processed

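RNA of sorted macrophages was made into libraries with a SMARTer Ultra Low kit, per the labels' protocols. The authors deposited whole-number gene counts, CPM and TPM of all libraries in separate tables. In part of the splenic libraries the deposited TPM columns summed above 1000000 because of repeated rows. These deposited columns were entered as a score, being the authors' TPM with gene rows repeated, until the repeats were dropped. The submitters' processing notes name mm10 as the build, and Salmon, featureCounts, Subread, STAR and DRAGEN as tools, whose roles were not given in the sources used here.

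Of 55774 rows, 287 repeats were dropped. Tests ran on the deposited counts with edgeR 4.0.16 in R 4.3.3: TMM scaling, filterByExpr with a minimum count of 10, two-sided quasi-likelihood tests and Benjamini-Hochberg adjustment over all genes tested, called at 0.05. KO and WT were compared in the 6 libraries of each cell type, the difference and mean of the genotype effect in all 24, and cell types in the 12 WT and the 12 KO libraries. These comparisons share libraries. SE is the log2 fold change over the root of the F value. TPM served for levels between genes and ratios only, and the deposited CPM for values by library. Alternatives were RLE scaling, no filter, DESeq2 1.42.0, the replicate number as a block, the fit of all 24 libraries and leaving out each library. The code was tested on simulated counts. Depth was 50449347 to 65981787 counts per library, and the reads carried no molecular identifiers. Replicates never agreed within sampling noise (smallest chi-square per degree of freedom 32.7). With 3 against 3 an exact permutation test cannot go below 0.1 and was not used.

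The members, gene lists and marker lists were chosen with earlier results of these data known. Named genes were the 10 members with Nr1h3 and Nr1h2, and of each other list the genes called, or else the 2 with the highest mean TPM. Coordinates come from GENCODE M21 on mm10, in which 55141 genes (99.38%) were found.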

Additional observations from a re-analysis of the deposited data

Results flagged for a closer look

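The genotype effect differed between the 4 cell types for 3 of the genes read here, by the test of that difference in the fit of all 24 libraries. For Scd1 the interaction had an adjusted p of 0.00421, with KO below WT in spleen (10.6 ± 3.62 against 74.7 ± 15.3 CPM, SD, n = 3) and above it in lung (80.2 ± 16.1 against 27.3 ± 18.1 CPM). Within a tissue, edgeR's test called the splenic difference, a call lost in 4 of 11 alternative fits. The lung difference was not called (adjusted p = 0.188). For Lpcat2, a relative of a member, the interaction had an adjusted p of 0.00381, with KO above WT in lung (44.3 ± 3.99 against 18.1 ± 2.83 CPM) and 234 ± 32.5 against 292 ± 37.8 CPM in spleen. Its lung call was lost in 7 of 11 alternative fits, and its splenic difference was not called (adjusted p = 0.583). For Fads2 the interaction had an adjusted p of 0.0477, with 0.107 ± 0.1 CPM in lung KO against 3.26 ± 2.16 in WT. In 22 of 28 alternative fits the Fads2 interaction was not called.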

How the results depend on the processing

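Over 440 alternative values of the 40 member differences between KO and WT, 403 kept direction and side of the threshold, 4 lost and 4 gained a call and 29 turned sign. Over 960 of the 60 WT pairs of cell types these numbers were 904, 37, 8 and 11. DESeq2 called more genes: 1027 in alveolar macrophages, 479 in Kupffer cells, 105 in microglia, 988 in splenic macrophages, 945 for the difference between cell types and 654 for the mean effect. Members called by DESeq2 were 3 in alveolar macrophages and 2 in splenic macrophages and for the difference. Fitting all 24 libraries called 297 alveolar, 48 Kupffer and 19 microglial genes, and dropping the low-count filter 163, 76, 13 and, in spleen, 330. The cause was not tested.

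With the replicate block 0 alveolar, 0 Kupffer and 10 splenic genes were called, and 0 splenic members (Scd1 -2.81, adjusted p = 0.0874). The numbers did not pair the libraries: over 84 same-numbered pairs the correlation of deviations was -0.04 to 0.07, and 10 of 24 libraries correlated best with their own number. Leaving out 1 library, on fewer samples, gave 0 to 29 alveolar, 0 to 15 Kupffer, 0 to 1 microglial and 18 to 90 splenic genes, 0 to 1 splenic members, and 74 to 159 genes for the difference between cell types.

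Signs turned for small differences. Srebf1 in microglia was 0.00 with the block, and Scd2 in WT Kupffer over splenic macrophages 0.02 with DESeq2, RLE scaling or no filter. With 1 library left out, KO over WT in log2 ran in alveolar macrophages from -0.09 to 0.08 (Abcg1), -0.02 to 0.33 (Apoe) and -0.02 to 0.13 (Mylip). In Kupffer cells it ran from -0.12 to 0.21 (Abcg1), -0.10 to 0.06 (Apoe), -0.20 to 0.07 (Lpcat3), -0.05 to 0.05 (Nr1h2), -0.12 to 0.26 (Nr1h3), -0.23 to 0.11 (Pltp) and -0.19 to 0.17 (Srebf1). In microglia it ran from -0.29 to 0.07 (Abcg1), -0.69 to 1.44 (Apoc1), -0.49 to 0.30 (Fads2), -0.13 to 0.08 (Lpcat3), -0.10 to 0.28 (Scd2) and -0.18 to 0.09 (Srebf1), and in splenic macrophages from -0.18 to 0.01 (Pltp) and -0.02 to 0.15 (Srebf1). Between WT cell types the ranges were -0.40 to 0.10 (Abca1, Kupffer over microglia), -0.48 to 0.01 (Abca1, microglia over splenic), -0.13 to 0.09 (Scd1, Kupffer over splenic) and -0.23 to 0.18 (Scd2, Kupffer over splenic). The alveolar minus microglial effect on Scd1 ran from -0.99 to 0.12. Low counts of Scd1 and Apoc1 in microglia limit their fold changes.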
